A study of Mus musculus with 7 samples.

Results

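Genes of the machinery that brings newly made proteins into the endoplasmic reticulum (ER) were examined in epididymal white adipose tissue of wild type and aP2-XBP1 transgenic mice. The 10 genes listed were Sec61a1, Sec61b, Sec61g and Sec62 of the translocation channel, Ssr1, Ssr2, Ssr3 and Ssr4 of the translocon-associated protein (TRAP) complex, and Spcs2 and Spcs3 of signal peptidase. They were chosen by name, with earlier results of these data known. A gene was read from the probe set that the platform annotation pairs with its symbol alone, and with several such probe sets from the one with the highest mean. This gave values for 9 of the 10 genes, of 19938 genes measured in the same way. The 4 probe sets that list Sec61g list 2 predicted genes with it, so Sec61g has no value here.

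Chow-fed C57Bl/6J males aged 17 weeks gave 4 wild type samples and 3 samples that carry the aP2-XBP1 transgene, with 1 Affymetrix array per sample. The transgene is driven by the promoter of aP2 (Fabp4), a fatty acid carrier gene of adipocytes that macrophages also express. The factor XBP1 switches on genes of the unfolded protein response, and the series title names its spliced form, XBP1s. The labels do not say how many transgenic lines were used, nor that each replicate was a separate animal, and the p-values therefore cover only the variation among these samples, some of which may be technical. In RNA from a whole fat pad, fewer cells of a type and less RNA per cell cannot be told apart.

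A protein destined for secretion, such as an adipokine, is recognised by its signal sequence while it is still being made, and the ribosome is brought to the Sec61 channel in the ER membrane. The chain passes through the channel, TRAP assists the entry of some chains, and signal peptidase cuts the signal sequence off. Genes of this machinery are well known targets of XBP1 in secretory cells, where they are part of the program that enlarges the ER.

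RefSeq promoter windows, from 250 bases before to 50 after a gene's start site in GRCm38.p6, were searched for 6 of the genes, Sec61b, Sec61g, Sec62, Ssr1, Ssr4 and Spcs2. Each window was searched on both strands for TGACGTGG (an unfolded protein response element), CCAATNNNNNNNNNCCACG and ATTGGNCCACG (both forms of the ER stress response element), the shorter CCACGT, and the E-box CACGTG, which can overlap it. The first 3 motifs were in 0 of the 6 windows, and they lie in 0.676%, 0.119% and 0.0365% of the 32851 promoter windows of the same length. CCACGT was in 1 of the 6, Ssr1, against 8.31% of all windows, and CACGTG in 2, Ssr1 and Sec62, against 7.15%. A match is a description of these letters and not evidence of a binding site. Shown are Spcs2, which had the largest expression difference of those measured among them, and Ssr1, which had the most matches. Capitals mark the matches, and both genes lie on the minus strand, at chr7:99858834-99859133 (Spcs2) and chr13:37994159-37994458 (Ssr1).
Spcs2: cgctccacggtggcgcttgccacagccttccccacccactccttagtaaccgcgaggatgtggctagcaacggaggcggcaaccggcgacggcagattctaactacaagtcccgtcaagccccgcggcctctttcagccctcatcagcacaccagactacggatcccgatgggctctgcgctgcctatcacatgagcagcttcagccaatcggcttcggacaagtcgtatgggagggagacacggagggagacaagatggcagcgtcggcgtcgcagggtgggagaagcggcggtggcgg
Ssr1: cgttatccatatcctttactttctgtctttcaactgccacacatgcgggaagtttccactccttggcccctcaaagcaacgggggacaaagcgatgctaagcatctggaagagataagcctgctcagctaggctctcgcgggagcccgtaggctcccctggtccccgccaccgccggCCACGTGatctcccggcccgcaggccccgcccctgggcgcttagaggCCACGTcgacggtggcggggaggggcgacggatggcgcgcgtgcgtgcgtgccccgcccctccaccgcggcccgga
In the Ssr1 window CCACGT stands at bases 178 and 225, the first of them overlapping the E-box. The Spcs2 window has no match, which says only that these letters are not in it.

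The transgene check came from the Xbp1 probe set (10374035). Xbp1 read 8.90, 9.07, 8.94 and 9.19 on the log2 scale in wild type replicates 1 to 4 and 9.76, 9.99 and 9.66 in transgenic replicates 1 to 3. All transgenic libraries lay above all wild type libraries, and transgenic replicate 2 was the highest. Medians of the arrays over all rows were 4.03 to 4.04 in wild type and 3.99 to 4.01 in transgenic samples.

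All 9 genes had a higher mean in transgenic than in wild type fat, by 0.055 to 0.40 on the log2 scale, with a median difference of 0.19. Across all genes 53.8% had a higher transgenic mean and the median difference was 0.011. Among genes with a mean of at least 8, as all of the 9 but Sec61b had, the share was 59.3% and the median 0.051. In limma 0 of the 9 passed an adjusted p of 0.05, where the share of all 21789 probe sets tested was 0%. At an unadjusted p under 0.05 limma had 2 of the 9 higher, Ssr3 and Spcs2, against 4.82% of probe sets. Every transgenic library lay above every wild type library for 3 of the 9 genes, Ssr2, Ssr3 and Spcs2, against 3.55% of all genes and 11.5% of genes with a mean of at least 8. An exact two-sided permutation test over samples gave p = 0.0286 for these 3 genes and p = 0.286 to 0.571 for the others. The differences rested largely on transgenic replicate 2. Without it the median difference of the 9 genes was 0.070, and 8 of 9 had a higher transgenic mean. The share and median over all genes without that library are not given here.

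**Figure D1:**
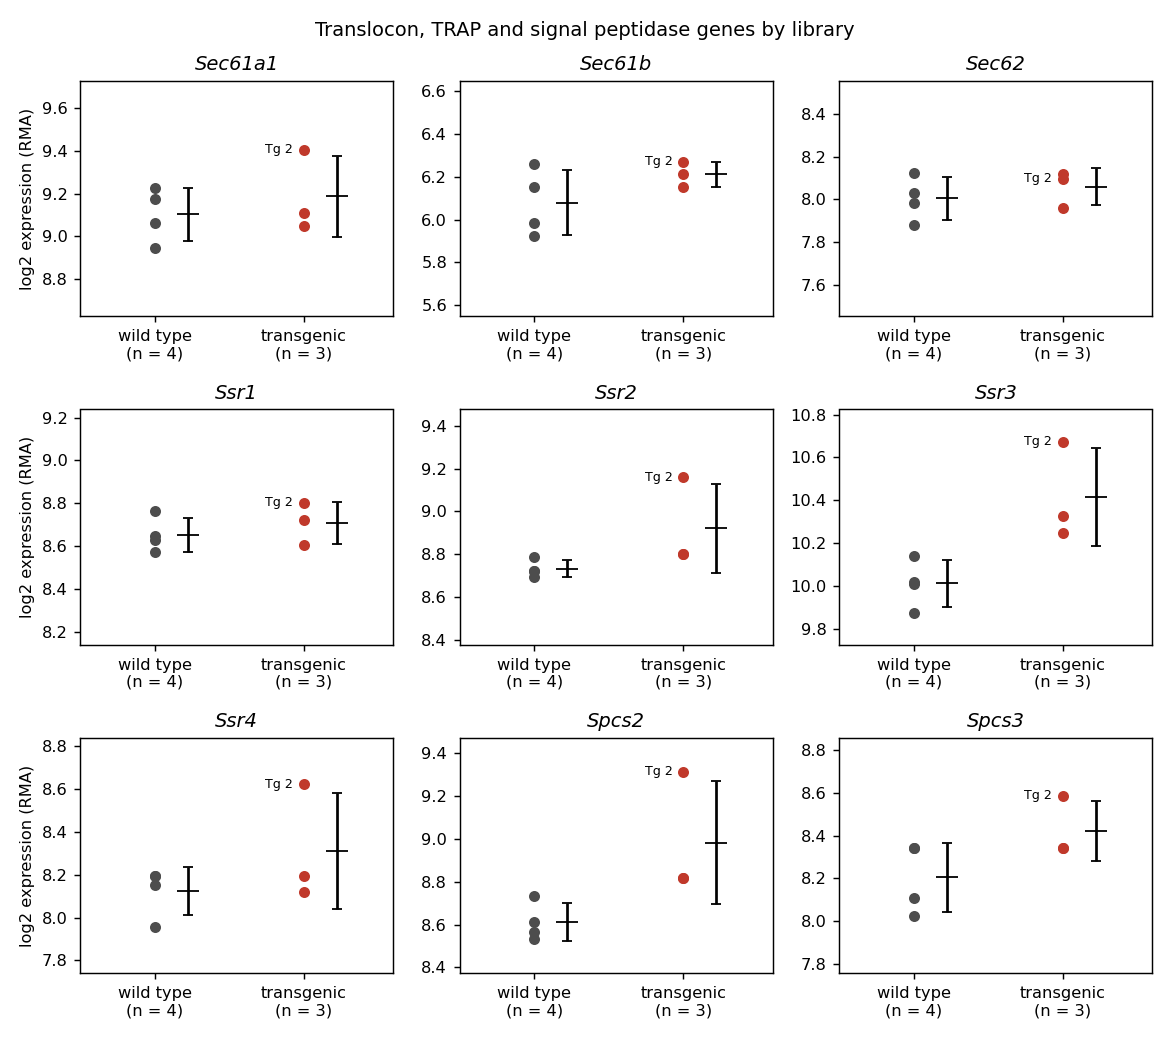
Each panel plots the log2 RMA expression of 1 gene in the 4 wild type (grey) and 3 transgenic (red) libraries, with the group mean and SD beside the points; every vertical axis spans the same log2 range. The groups do not overlap for Ssr2, Ssr3 and Spcs2, and transgenic replicate 2 (Tg 2) is the highest library in 8 of the 9 panels.

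Of the 3 groups the channel had the lowest median difference, 0.084, although single genes did not follow that order, since Ssr1 of TRAP lay between Sec62 and Sec61a1. Sec61a1 (10546113), the pore-forming subunit, read 9.18, 9.06, 9.23 and 8.95 in wild type replicates 1 to 4 and 9.11, 9.40 and 9.05 in transgenic replicates 1 to 3. Only transgenic replicate 2 lay above the wild type range, and transgenic replicate 3 lay below the wild type mean. The wild type mean was 9.10 ± 0.12 (SD, n = 4) and the transgenic mean 9.19 ± 0.19 (SD, n = 3). They differed by 0.084 (SE 0.11, limma adjusted p = 0.798, 95% interval -0.18 to 0.34). The direction turned without transgenic replicate 2, where the difference was -0.024.

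Sec61b, the small tail-anchored beta subunit, has 3 probe sets of its own, which list the same transcripts and cannot be assigned to separate copies. The brightest (10411454) read 6.26, 5.92, 6.15 and 5.98 in wild type and 6.15, 6.27 and 6.21 in transgenic libraries, in replicate order. Wild type replicate 1 was level with the transgenic libraries, and the groups overlapped. The difference was 0.13 (SE 0.089, 95% interval -0.083 to 0.35, limma adjusted p = 0.688). On the 2 dimmer probe sets it was 0.22 and 0.16, with transgenic replicate 2 highest on both.

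Sec62, a membrane protein that together with Sec63 serves chains that enter after their synthesis, stood apart from the rest. It read 7.88, 8.13, 7.98 and 8.03 in wild type and 8.12, 8.10 and 7.96 in transgenic libraries. Its highest library was wild type replicate 2, the only case among the 9 genes in which transgenic replicate 2 was not the highest. The difference was 0.055 (SE 0.072, 95% interval -0.12 to 0.23, limma adjusted p = 0.798), and when wild type replicate 2 was the sole control it was -0.066. The interval covers differences in both directions, and the data do not show that the level was equal.

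Within TRAP the subunits differed in size, from Ssr1 to Ssr3. Ssr3 (10498519), the gamma subunit, had the largest difference of the 9 genes. It read 10.01, 10.14, 10.02 and 9.87 in wild type and 10.32, 10.67 and 10.25 in transgenic libraries. The lowest transgenic library was 0.11 above the highest wild type library. The wild type mean was 10.01 ± 0.11 (SD, n = 4) and the transgenic mean 10.41 ± 0.23 (SD, n = 3), 1.32-fold apart (log2 difference 0.40, SE 0.12, 95% interval 0.12 to 0.69). The exact two-sided permutation test over samples gave p = 0.0286, the smallest that 4 against 3 libraries can give, and limma's adjusted p was 0.622. Without transgenic replicate 2 the difference was 0.28 and the groups still did not overlap.

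Ssr2 (10493259), the beta subunit, read 8.72, 8.69, 8.79 and 8.72 in wild type and 8.80, 9.16 and 8.80 in transgenic libraries. The groups did not overlap, but the gap between them was 0.013, and they overlapped after another round of quantile normalization. Transgenic replicates 1 and 3 stood just above the wild type range and replicate 2 far above it. The difference was 0.19 (SE 0.096, exact permutation p = 0.0286, limma adjusted p = 0.646), and 0.070 without transgenic replicate 2.

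Ssr4 (10600301), the delta subunit, read 8.19, 7.96, 8.19 and 8.15 in wild type and 8.19, 8.62 and 8.12 in transgenic libraries. Transgenic replicates 1 and 3 lay inside the wild type range, so that the difference of 0.19 (SE 0.13, limma adjusted p = 0.692) came down to 0.031 without replicate 2. The value of 8.19 was the same to the last digit in 3 libraries. Such shared values occurred for 3 of the 9 genes (Sec61b, Ssr4 and Spcs3) and for 13896 of the 19938 genes, so an exact tie is a common feature of the deposited values.

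Ssr1 (10408709), the alpha subunit, read 8.76, 8.57, 8.64 and 8.63 in wild type and 8.72, 8.80 and 8.61 in transgenic libraries. The groups overlapped, with wild type replicate 1 the second highest library. The difference was 0.056 (SE 0.067, 95% interval -0.11 to 0.22, limma adjusted p = 0.785). The upper bound of this interval lies above the lower bound for Ssr3, and the difference between the 2 subunits was not tested. TRAP as a group had a median difference of 0.19 over 4 genes, and 0.051 without transgenic replicate 2.

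Both signal peptidase genes were higher on average in transgenic fat. Spcs2 (10565846), a noncatalytic subunit, read 8.57, 8.61, 8.73 and 8.53 in wild type and 8.82, 9.31 and 8.82 in transgenic libraries. The lowest transgenic library was 0.084 above the highest wild type library. The wild type mean was 8.61 ± 0.089 (SD, n = 4) and the transgenic mean 8.98 ± 0.29 (SD, n = 3), 1.29-fold apart (log2 difference 0.37, SE 0.13, 95% interval 0.050 to 0.70, exact permutation p = 0.0286, limma adjusted p = 0.622). Without transgenic replicate 2 it was 0.21, again with no overlap.

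Spcs3 (10578703), also a noncatalytic subunit, read 8.34, 8.03, 8.34 and 8.11 in wild type and 8.34, 8.59 and 8.34 in transgenic libraries. Wild type replicates 1 and 3 were level with transgenic replicates 1 and 3, and the groups overlapped by less than 0.01. They no longer overlapped when each array was brought to the same median. The difference was 0.22 (SE 0.11, 95% interval -0.043 to 0.48, limma adjusted p = 0.640), and 0.14 without transgenic replicate 2. The median of both genes was 0.30 (0.17 without that library), against 0.084 for the 3 channel genes.

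**Figure D2:**
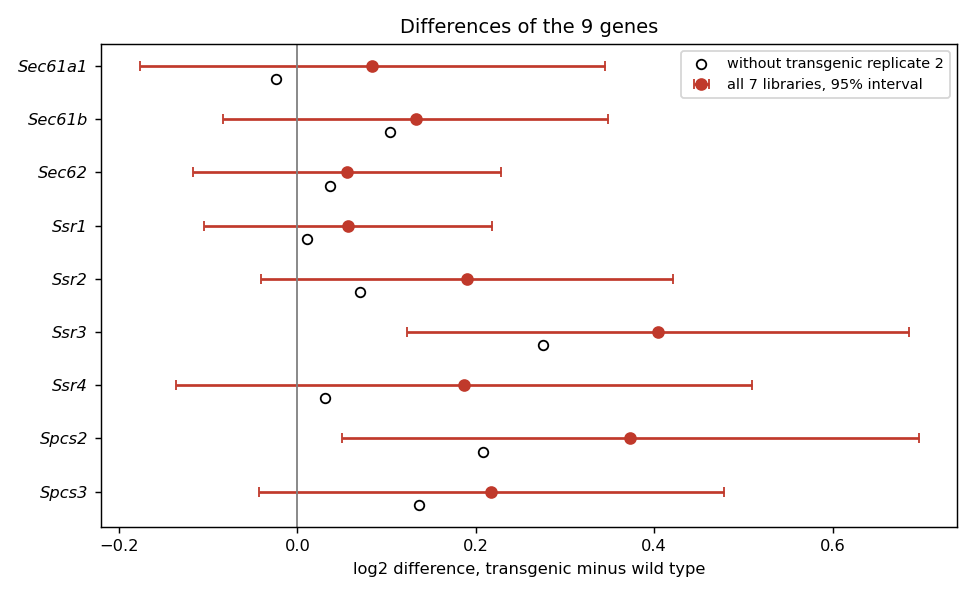
Filled red points give the log2 difference, transgenic minus wild type, of each gene with limma's 95% interval, and open points give the same difference without transgenic replicate 2. The intervals of Ssr3 and Spcs2 lie above 0, and every open point lies to the left of its filled point, with Sec61a1 below 0.

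Transgenic replicate 2 was the highest of the 7 libraries for 8 of the 9 genes, all but Sec62. Over all genes it was the highest for 10.8%, and over genes with a mean of at least 8 for 10.1%. Its distance from the mean of the other 2 transgenic libraries was 0.50 for Spcs2, 0.47 for Ssr4, 0.39 for Ssr3, 0.36 for Ssr2 and 0.32 for Sec61a1. It was smaller for Spcs3 (0.24), Ssr1 (0.14), Sec61b (0.086) and Sec62 (0.056). The same library had the highest Xbp1 value, 0.28 above the mean of the other 2.

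The mean deviation of the 9 genes from their own means ran from -0.14 to -0.019 in wild type libraries. It was 0.037, 0.30 and -0.010 in transgenic replicates 1 to 3. The groups did not overlap on this score, by a margin of less than 0.01. Across the 7 libraries, each gene's Pearson correlation with the mean of the other 8 was 0.16 for Sec62 and between 0.65 (Sec61b) and 0.96 (Ssr2) for the remaining genes. These correlations describe 7 arrays, among which transgenic replicate 2 stands out, and carry no test.

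**Figure D3:**
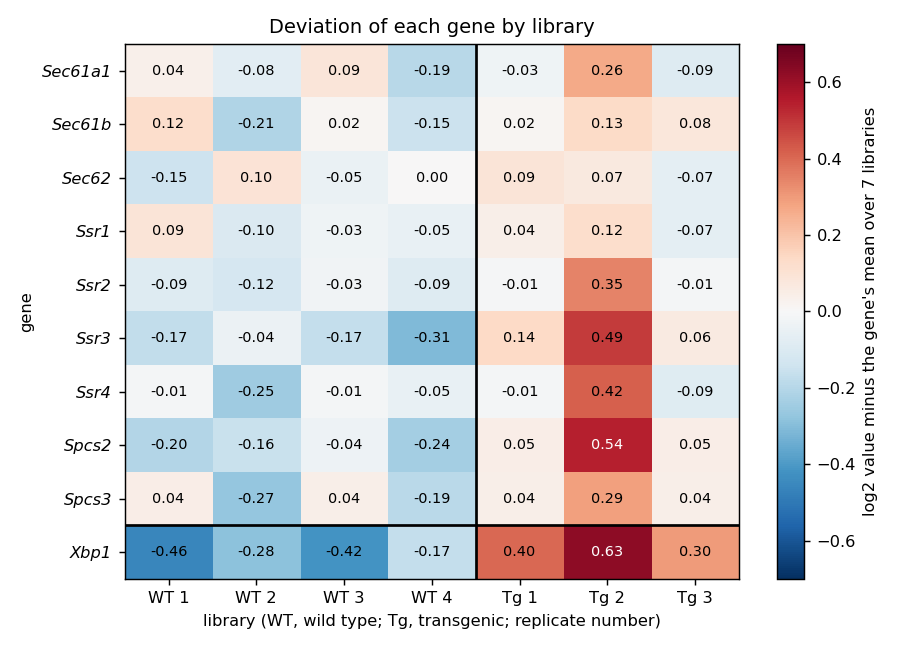
The map shows the log2 value of each gene minus its mean over the 7 libraries, for the 9 genes and, under the line, Xbp1; red is above and blue below the gene's mean. In the 9 rows above the line the column of transgenic replicate 2 is red, from 0.069 (Sec62) to 0.54 (Spcs2). In the same 9 rows the other 2 transgenic columns stay between -0.089 and 0.14.

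Other genes of protein entry into the ER were followed in 6 lists with 44 measured genes. In limma 0 of the 44 passed an adjusted p of 0.05 in either direction, 15 were higher at an unadjusted p under 0.05 (4.82% of all probe sets were), and 9 were higher with groups that did not overlap (3.55% of all genes, and 11.5% of those with a mean of at least 8). Their transgenic mean was higher in 40 and lower in 4, with a median difference of 0.15, where 53.8% of all genes were higher and the median was 0.011.

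The signal recognition particle and its receptor, which bring the ribosome to the membrane, had 7 of 7 genes higher on average and a median difference of 0.16. Srp9, a subunit that pauses translation together with Srp14, differed by 0.26 (SE 0.077), and the dim Srp19 by 0.25 (SE 0.082). Srp54a, Srp54b and Srp54c share their probe sets and were not used. Of 12 further proteins at the translocon 9 were higher on average, with a median of 0.11. The smallest p-values were those of Hspa5 (BiP), the chaperone that pulls chains into the lumen (0.65, SE 0.12), and of Sec63, its membrane partner (0.33, SE 0.091). Sec63 read 7.77 to 8.14 in wild type and 8.23 to 8.37 in transgenic fat, without overlap, whereas the groups overlapped for its partner Sec62.

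The remaining genes of signal peptidase had smaller average differences. Sec11a, a catalytic subunit, differed by 0.14 (SE 0.078) with overlapping groups. In the list of 4 genes that also holds Sec11c, Spcs1 and the signal peptide peptidase gene H13 (0.11, SE 0.075), 3 were higher on average and the median was 0.12. Spcs1, a small subunit, was lower on average, with a log2 difference of -0.057.

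The ER membrane complex, an insertase that works beside Sec61, had 9 of 9 measured genes higher on average and the largest median of these lists, 0.33. The wild type libraries were uneven for this list. The mean deviation of its 9 genes from their own means was 0.032 in wild type replicate 2. It was -0.25, -0.14 and -0.15 in wild type replicates 1, 3 and 4, and 0.083, 0.16 and 0.26 in transgenic replicates 1 to 3. Emc6 read 6.52, 6.84, 6.64 and 6.57 in wild type and 6.95, 7.06 and 7.26 in transgenic libraries, a difference of 0.45 (SE 0.10, limma adjusted p = 0.622). Mmgt1, another subunit, differed by 0.49 (SE 0.15). Transgenic replicate 2 was the highest library for 1 of these 9 genes, and for 10.8% of all genes. The median without that library was 0.37, where the 9 translocon genes had 0.070, and no median over all genes is given for this setting.

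Insertion of tail-anchored proteins had a median of 0.069 over 6 genes, with Sgta at 0.23 (SE 0.093) and Get3 at 0.30 (SE 0.14). The multipass translocon, a set of proteins that joins Sec61 for membrane proteins with many spans, had a median of 0.12 over 6 genes, with Wdr83os at 0.21 (SE 0.080) and Nomo1 at 0.37 (SE 0.15). None of the genes named from the 6 lists passed an adjusted p of 0.05, and differences between lists were not tested.

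**Figure D4:**
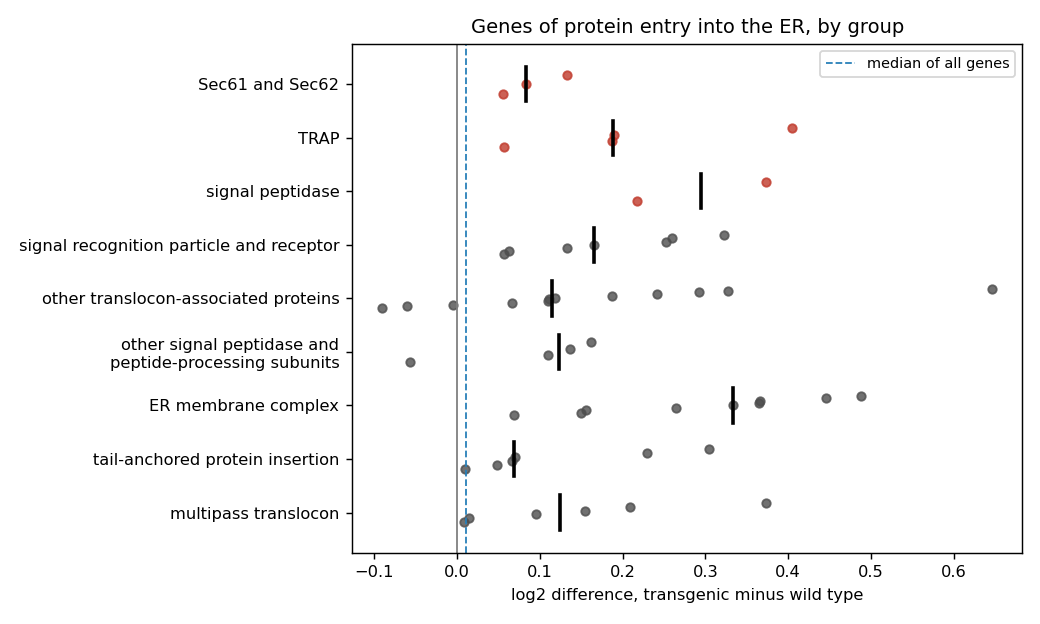
Points are log2 differences of single genes, transgenic minus wild type, for the 3 groups of genes described (red) and the 6 other lists (grey), with the black bar at each median; the dashed line is the median of all genes. The channel genes lie between 0.055 and 0.13, and the ER membrane complex has the median farthest to the right, at 0.33.

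Genes with the most similar pattern were ranked by Pearson correlation with the mean deviation of the 9 genes over the 7 libraries, among 6267 named genes with a group mean of at least 6. The closest 10 were Lman1 (0.98), an ER cargo receptor, Dnajb11 (0.97), a co-chaperone of BiP, Tmem242 (0.97), Plpp5 (0.97), Magt1 (0.97), P4hb (0.97), a protein disulfide isomerase, Nop16 (0.96), Hars (0.96), the histidyl-tRNA synthetase, Snf8 (0.95) and Slc35b1 (0.95), a nucleotide carrier of the ER. In each of the 10 transgenic replicate 2 was the highest library, which the ranking favours, since the mean deviation of the 9 genes was itself highest there. Slc35b1 had the largest difference among them, 0.70, reading 7.02 to 7.30 in wild type and 7.63, 8.25 and 7.71 in transgenic replicates 1 to 3. Xbp1 itself ranked 196, with a correlation of 0.74. These correlations are over 7 arrays and are given without a test.

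Levels of cell type markers varied between the libraries. The mean log2 level of 9 adipocyte markers was 10.30 to 11.01 in wild type and 11.02 to 11.20 in transgenic libraries, so the groups did not overlap, and 9 of 9 had a higher transgenic mean. This score was highest in transgenic replicate 3, and the mean deviation of the 9 genes described was highest in transgenic replicate 2. The part of the adipocyte score in the differences above was not tested. The mean of 10 epididymal markers was 4.69 and 4.71 in wild type replicates 1 and 3, higher still in replicate 4, and 2.60 to 3.23 in the other 4 libraries. Of the 10 only Serpina1f, Spink8 and Defb42 were high in those 3 libraries. Serpina1f read 10.70, 10.84 and 11.50 there against 2.74 to 3.73 elsewhere, Spink8 8.82 to 9.51 against 2.45 to 2.89, and Defb42 8.41 to 9.14 against 2.48 to 3.17. The other 7, among them Lcn5, Lcn8, Lcn9 and Adam7, lay between 1.90 and 4.69 in all libraries and had a higher mean in transgenic fat, so that the median difference of the 10 was 0.13 although their mean was lower there. Lcn8, Lcn9 and Adam7 were highest in transgenic replicate 1. Of the 10 markers, 5 lay below the median of all values on the arrays (4.02) in every library. The differences of these 7 are therefore between low readings. The mean of 8 smooth muscle markers was 9.02 to 9.57 in the same 3 libraries and 6.23 to 6.86 in the others.

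The mean deviation of the translocon genes was -0.038 and -0.019 in wild type replicates 1 and 3, -0.14 in replicate 4 and -0.13 in replicate 2. Against wild type replicate 2 alone, the wild type library in which Serpina1f, Spink8 and Defb42 were low, their median difference was 0.27, and 8 of 9 were higher, all but Sec62. That comparison rests on 1 control library, and no share or median over all genes is given for it. The part of the epididymal and smooth muscle transcripts in the differences was not tested. Macrophage markers averaged 8.06 to 9.66 in wild type and 8.54 to 8.80 in transgenic libraries, with 0 of 8 higher on average in transgenic fat. The 7 plasma cell and B cell markers averaged 3.41 to 3.94 in wild type and 3.68 to 3.82 in transgenic libraries, with 4 of 7 higher on average in transgenic fat. These averages are low, below the median of all values on the arrays (4.02), and 3 of the 7 markers lay below it in every library. Jchain, a joining chain of secreted antibodies, read 3.70 to 5.91 in wild type and 4.63 to 4.96 in transgenic libraries. The part of these cell types in the result was not tested.

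Endothelial markers averaged 7.66 to 8.02 and 7.94 to 8.16, progenitor and fibroblast markers 8.64 to 9.25 and 8.89 to 9.02, mesothelial markers 5.55 to 7.04 and 6.42 to 6.99, and general epithelial markers 5.79 to 7.07 and 5.31 to 5.95, in wild type and transgenic libraries. The transgenic mean was higher for 7 of 7 endothelial, 3 of 7 progenitor and fibroblast, 4 of 5 mesothelial and 0 of 5 general epithelial markers. The groups overlapped in each of these 4 lists, and none of the lists had its highest library in transgenic replicate 2.

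**Figure D5:**
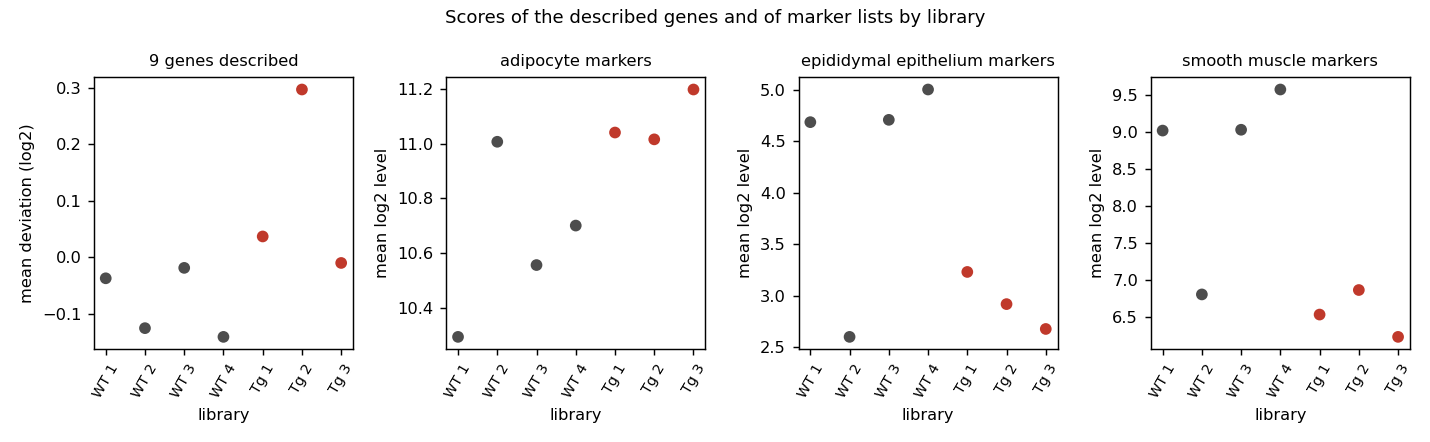
The left panel plots the mean log2 deviation of the 9 genes by library, and the other panels plot the mean log2 level of adipocyte, epididymal epithelium and smooth muscle markers; wild type (WT) is grey and transgenic (Tg) red. Transgenic replicate 2 stands alone at 0.30 in the left panel, while the epididymal and smooth muscle panels set wild type replicates 1, 3 and 4 apart.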

How the data were processed

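Total RNA of 7 samples, 4 wild type and 3 aP2-XBP1 transgenic, was hybridised to 1-colour arrays. The deposited values are log2 expression, made by the authors with RMA per the submitters' processing notes; the sources used here name no version, filter or genome build. RMA equalises the arrays, so a shift of all genes would not be seen. All 7 value columns were used. Of 35556 probe sets, 21789 had exactly 1 gene symbol in the platform annotation, 1621 several and 12146 none or no entry.

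Genotype was fitted with lmFit and eBayes of limma 3.58.1 in R 4.3.3 (two-sided) on all 21789 probe sets, with Benjamini-Hochberg adjustment over all of them and a threshold of 0.05. The fit was tested on simulated data. Single values had an exact two-sided permutation test of the means over all 35 assignments of the libraries. Intervals are limma's, for 1 gene at a time. Precision is limited by the number of arrays.

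Named genes were all members, the 2 of smallest p in each of 6 further lists, Xbp1 and Fabp4, and the 10 of closest pattern. Members and lists were chosen with earlier results of these data known, and motifs after the promoters were seen. A further promoter window is not reported here. Slc35b1, Jchain and the single epididymal markers were singled out after their values were seen. Fabp4 differed by 0.22 (SE 0.13), with overlapping groups. Alternatives are given in the closing section. Tables and figures were made with Python 3.11.15, pandas 2.3.3 and matplotlib 3.10.9; array weights needed statmod 1.5.0.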

Additional observations from a re-analysis of the deposited data

Results flagged for a closer look

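In 33 of the genes named, the 4 wild type libraries were searched for a single library far from the others. Serpina1f, Spink8 and Defb42, low in wild type replicate 2 and high in the other wild type libraries, were not among them. Chance gives such a library in about 1 in 20 groups. Ssr4 read 7.96 in wild type replicate 2, against 8.15 to 8.19 in the other wild type libraries. Get3 read 7.04 in wild type replicate 4, against 7.38 in each of the others, which are the same to the last digit. With such a tie any differing value in the remaining library is flagged, so the rate given for chance does not hold for Get3. The 3 transgenic libraries are too few for this search, so transgenic replicate 2 was not tested.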

How the results depend on the processing

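Each gene was refitted under 17 alternatives. Of 153 values 151 kept their direction and 0 passed an adjusted p of 0.05 (lowest 0.191, with array weights, for Ssr3). Sec61a1 turned without transgenic replicate 2 (range -0.024 to 0.15 over single libraries left out), and Sec62 turned to -0.066 when wild type replicate 2 was the sole control. With single libraries left out, the median difference of the 9 genes ran from 0.070 (without transgenic replicate 2) to 0.25, and that of TRAP from 0.051 to 0.27. Probe sets called ran from 0 to 91, the latter without wild type replicate 2, with 0 of the 9 genes among them. Non-overlapping genes numbered 2 under another quantile normalization and 4 with arrays shifted to a common median. With the replicate number as a block the median difference was 0.19 and 0 probe sets were called. Deviations of same-numbered samples correlated at -0.14, -0.095 and 0.058, and those of differently numbered samples at -0.18 to 0.14. These values cannot show whether the numbers pair the samples. All other summary values kept their direction, and stayed within the spread between replicates or, for counts, within 1.5 times. Background correction was not varied.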
